A study of Mus musculus with 27 samples.

Results

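The chromosome 4 core is an 850 kb stretch of mouse chromosome 4, reaching from Cdcp2 to beyond Cpt2, whose contacts were enriched by capture Hi-C in testis. Described here are its interchromosomal (trans) contacts, those joining it to the other autosomes. The members are the 1 Mb bins of the 18 autosomes other than chromosome 4. Bins of a 2.68 Mb stretch of chromosome 2 that was itself captured were set apart, as were the 3 core bins of 10 kb, between Dmrtb1 and Lrp8, that hold the deletion. Coordinates are those of build mm10. This gave 2257 bins, of 2661 with contacts in the whole series, and 2246 of them held enough contacts to be tested. The members were chosen by position, with no use of their contact counts.

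The series holds 27 testis samples: 6 capture Hi-C libraries, 9 RNA-seq libraries and 12 ChIP-seq libraries. It concerns the deletion of a conserved boundary between topologically associating domains (TADs), stretches of chromosome that contact themselves more than their neighbours. The capture Hi-C libraries fall into 2 groups, both whole testis: 3 from wild-type mice, and 3 from mice homozygous for the deletion, whose genotype label reads B396.BOS_hom_KO. Strain, age and the number of deletion lines are not given in the labels used here. Whole testis mixes meiotic and postmeiotic germ cells with Sertoli, Leydig and other somatic cells, so each contact count is an average over cell types, with no expression values to check the tissue label against marker genes, and a change in the cells' shares cannot be told apart from a change within cells. The labels do not say that the libraries came from separate animals, and p-values therefore measure only the spread between these libraries.

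Chromosomes occupy separate territories in the interphase nucleus, and contacts between them form where territories meet or intermingle. Gene-rich, transcribed chromatin tends to contact other such chromatin, within and between chromosomes, and gene-poor chromatin tends to gather at the nuclear lamina and around nucleoli. Mouse chromosomes have their centromere at one end, next to large blocks of satellite repeats that cluster in chromocenters. Capture Hi-C crosslinks, cuts and ligates chromatin, then enriches ligation products of chosen regions with probes.

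The core holds 16 protein-coding genes. Left of the deleted interval lie, among others, Tmem59, Dio1 (a deiodinase that activates thyroid hormone), Ndc1 (a membrane protein of the nuclear pore), Glis1 (a zinc-finger transcription factor) and Dmrtb1 (a DM-domain factor of the male germ line). Right of it lie Lrp8 (a lipoprotein receptor), Magoh (a subunit of the exon junction complex), Czib and Cpt2 (a mitochondrial enzyme of fatty acid oxidation). Promoter sequences of RefSeq on GRCm38.p6, the assembly of mm10, were matched by symbol for 15 of these 16 genes. As examples of sequence in the core and in other bins, 4 promoters follow. Contacts were counted per bin, so no promoter is shown to lie at the end of a contact. Each runs from 250 bases before to 50 after the annotated gene start on the + strand, with CG dinucleotides in capitals. Ndc1 and Magoh are the named genes nearest to the deleted interval on each side whose listed promoter sits at the annotated start of the gene. Ramp1 and Esp24 are the first such genes in the bins with the highest and the lowest contact level, as described further on.
Ndc1 promoter, chr4:107367797-107368096: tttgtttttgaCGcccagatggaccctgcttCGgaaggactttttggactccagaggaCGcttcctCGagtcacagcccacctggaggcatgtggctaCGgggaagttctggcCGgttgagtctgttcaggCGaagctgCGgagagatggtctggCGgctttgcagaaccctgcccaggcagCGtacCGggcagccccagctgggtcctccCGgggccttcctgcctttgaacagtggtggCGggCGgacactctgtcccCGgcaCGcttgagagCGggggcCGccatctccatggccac
Magoh promoter, chr4:107879505-107879804: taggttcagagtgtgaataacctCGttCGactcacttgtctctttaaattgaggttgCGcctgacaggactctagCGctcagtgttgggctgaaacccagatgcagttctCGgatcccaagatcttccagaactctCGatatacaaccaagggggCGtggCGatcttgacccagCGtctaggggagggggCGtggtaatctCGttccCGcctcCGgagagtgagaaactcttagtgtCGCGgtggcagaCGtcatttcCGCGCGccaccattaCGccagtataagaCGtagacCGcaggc
Ramp1 promoter, chr1:91179572-91179871: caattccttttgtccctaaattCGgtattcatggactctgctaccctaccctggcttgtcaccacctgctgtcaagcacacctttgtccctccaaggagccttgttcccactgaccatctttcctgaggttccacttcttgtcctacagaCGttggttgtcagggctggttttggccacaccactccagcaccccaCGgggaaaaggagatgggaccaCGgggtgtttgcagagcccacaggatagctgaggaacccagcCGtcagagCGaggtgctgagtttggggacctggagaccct
Esp24 promoter, chr17:39036445-39036744: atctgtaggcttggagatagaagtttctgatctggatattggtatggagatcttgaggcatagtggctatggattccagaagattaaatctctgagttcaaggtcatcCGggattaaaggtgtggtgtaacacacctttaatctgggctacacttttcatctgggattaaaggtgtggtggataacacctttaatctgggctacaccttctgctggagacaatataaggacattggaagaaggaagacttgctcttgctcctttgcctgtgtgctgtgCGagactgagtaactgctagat
CG, which reads the same on both strands, occurred 18 times at Ndc1, 22 times at Magoh, 6 times at Ramp1 and 2 times at Esp24. Over 16456 autosomal promoters of this length the median was 14, and 95% held at least 1. The promoter table covered 79.6% of the autosomal coding genes and 79.7% of the tested bins, under 80%, so a comparison of promoter CG content across bins is void and no value is given.

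Contact totals were 6095669, 6937506 and 7321442 in the wild-type libraries, and the homozygous ones held 5669898, 7794641 and 7226469. Of these, 221283, 318242 and 281950 contacts joined the core to the other autosomes in wild type against 221004, 364110 and 284153 in homozygotes. The genotype labels were checked on the deleted interval. Its middle 10 kb bin made 1453, 1864 and 1957 trans contacts in wild type against 2, 4 and 1 in homozygotes, which is 0.122% of the wild-type count after scaling to the core's trans totals. The next bin on the right kept 0.280% and the bin on the left 72.7%. All 3 homozygous libraries thus matched their label.

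The share of the core's contacts that joined another autosome did not separate the genotypes. It was 18.8%, 17.7% and 19.3% in wild-type libraries 1 to 3, a mean of 18.6% ± 0.771 (SD, n = 3). In homozygous libraries it was 20.0%, 18.3% and 19.0%, a mean of 19.1% ± 0.848 (SD, n = 3). The groups overlapped, and the difference of 0.465 percentage points was smaller than either SD (two-sided exact permutation p = 0.5; 3 against 3 libraries cannot go below 0.1). Library 2 had the lowest share in both genotypes and also the most contacts of the core. Counted per 100 trans contacts of the rest of the genome, the core made 55.6, 73.8 and 57.9 in wild type against 56.0, 70.0 and 60.4 in homozygotes, and the difference turned to -0.296 (exact permutation p = 1).

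The share was also taken for each of the 82 bins of 10 kb that make up the core. Contacts between bins of the core count at both ends here, which puts these shares below that of the core as a whole. The mean over 6 libraries ran from 12.2% at chr4:107790001-107800000 to 16.4% at chr4:107250001-107260000, with a median of 14.9%. The homozygous mean was the higher in 76 of 82 bins, yet in 0 of 82 (0%) did the genotypes fail to overlap. All 82 bins share the same 6 libraries and are not independent. For the core as a whole, the difference ran from 0.0167 percentage points without homozygous library 1 to 0.860 without homozygous library 2. The 20 bins within 100 kb of the deleted interval had a median of 14.5%, against 15.2% for the 62 bins farther away, a split chosen after the values were seen. Contacts with the sequence beyond the deletion also enter the denominator of these shares, and their part in that difference was not tested. Both medians pool the genotypes, and low bins near the interval were low in wild type as well. The bin chr4:107790001-107800000 had 12.1% in wild type and 12.3% in homozygotes, and chr4:107660001-107670000 had 12.1% and 12.8%.

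Chromosomes differed in how often the core met them. For each bin or chromosome an expected count was formed by spreading the core's trans contacts over the genome as the background was spread in the same library, the background being trans contacts that involve neither captured region. The level is the log2 of observed over expected, so that 0 means as many contacts as the background share of that bin predicts. Chromosome 7 had the highest level, at 0.21, 0.18 and 0.20 in wild type against 0.20, 0.20 and 0.18 in homozygotes. Chromosomes 9, 11, 1 and 5 followed, with means over 6 libraries of 0.14, 0.14, 0.13 and 0.12, and neighbours in this order overlapped. Chromosome 18 had the lowest mean of 6 libraries, at -0.26, -0.26 and -0.23 in wild type against -0.23, -0.26 and -0.24 in homozygotes. Chromosome 17 overlapped it, at -0.19, -0.33 and -0.26 in wild type, and its wild-type mean was the lower (-0.26 against -0.25).

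All 6 libraries lay above 0 for 7 chromosomes (7, 9, 11, 1, 5, 2 and 8) and below 0 for 9 (12, 13, 15, 3, 10, 19, 16, 17 and 18). Chromosomes 6 and 14 straddled 0. Chromosome 17, with a mean of -0.24, changed most with its background: 1 bin of 10 kb (chr17:39840001-39850000), which overlaps the ribosomal RNA repeat Rn18s-rs5, held 29406 background contacts against a genome-wide median of 20, and without the 104 bins of 10 kb whose background exceeded 10 times that median the level of chromosome 17 was -0.09. Scaling by chromosome length in place of background turned chromosome 1 to -0.09 and chromosomes 15, 17 and 19 to 0.02, 0.09 and 0.15, so the direction for these 4 holds relative to the background alone. The order depends on it too: by length chromosome 11 was highest (0.50, with chromosome 7 at 0.13) and chromosome 3 lowest (-0.33, with chromosome 18 at -0.23).

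The deletion did not separate the chromosomes. The genotypes overlapped for 18 of 18, leaving 0 (0%) apart. The largest difference in means, 0.04 for chromosome 17, was smaller than the spread of its 6 libraries (SD 0.06). Two-sided exact permutation p-values ran from 0.2 to 0.9, and all were 0.9 after Benjamini-Hochberg adjustment over 18 chromosomes.

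**Figure D1:**
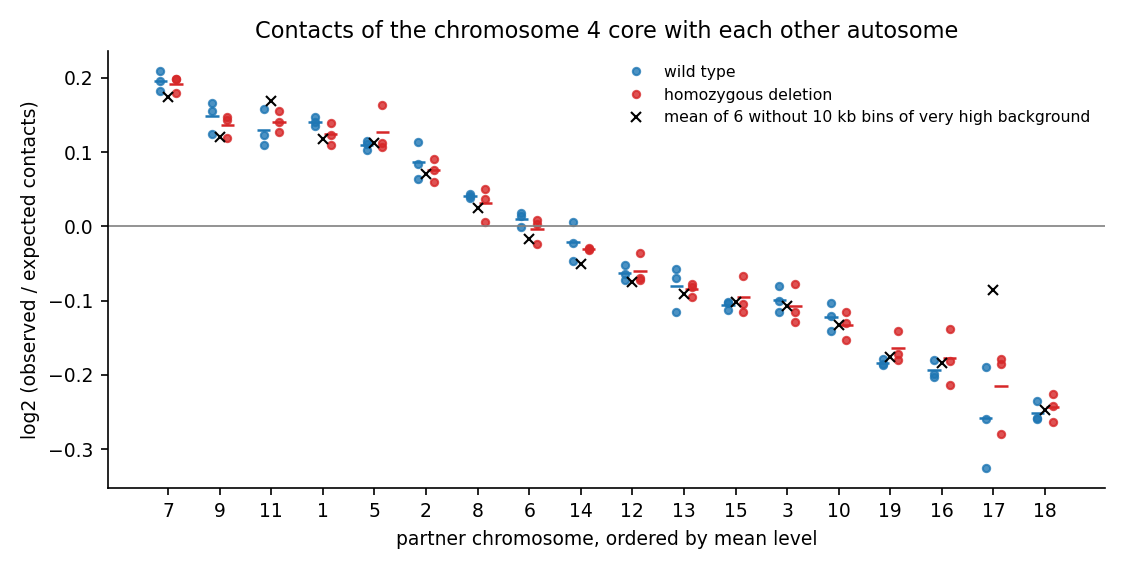
Level of each partner chromosome in 3 wild-type (blue) and 3 homozygous (red) libraries, with group means as bars and, as crosses, the mean of 6 libraries without the 10 kb bins of very high background. Levels run from 0.19 for chromosome 7 to -0.25 for chromosome 18, the genotypes overlap throughout, and the cross of chromosome 17 lies apart from its points.

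At 1 Mb, most bins departed from their background share, and did so alike in all libraries. In edgeR's quasi-likelihood test with Benjamini-Hochberg adjustment (threshold 0.05), 1775 of 2246 bins (79%) differed from expectation, 750 higher (33.4%) and 1025 lower (45.6%). In 614 bins all 6 libraries lay above expectation and in 887 all lay below, together 1501 bins (66.8%). The median level was -0.08, and from the 10th to the 90th percentile levels ran from -0.68 to 0.42, or 0.622 to 1.34 times the expected count. A bin held a median of 108 core contacts in a library, and the median SD between the 6 libraries was 0.15. Across the 2246 bins, Pearson's r between the levels of single libraries ran from 0.816 to 0.874, as a description. Bins of one chromosome are not independent points, and the libraries share capture probes and mappability. The r was 0.847 on average within a genotype and 0.840 between genotypes.

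The highest levels gathered on chromosome 1. The bin chr1:91000001-92000000 led with a level of 0.91. It held 216, 356 and 235 contacts in wild type against 243, 415 and 269 in homozygotes, where 114, 179, 157, 121, 191 and 159 were expected. The levels of single libraries were 0.92, 0.99, 0.58, 1.00, 1.12 and 0.76, all above 0 and overlapping between genotypes (adjusted p 1.63e-49, edgeR). Among its 15 coding genes are Lrrfip1, Rbm44, Ube2f, Scly and Ramp1, a co-receptor for peptides of the calcitonin family. The bins beside it were next: chr1:92000001-93000000 (0.82), which holds olfactory receptor genes, and chr1:90000001-91000000 (0.80), with the chemokine receptor Ackr3 and the collagen gene Col6a3. A further pair of bins of chromosome 1 were among the 10 highest, chr1:132000001-133000000 (0.80), with the transcription factor Elk4 and the kinase Nuak2, and chr1:87000001-88000000 (0.74), with the alkaline phosphatases Alppl2, Alpi and Akp3.

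The other 5 of the 10 lay on 4 chromosomes. They were chr5:35000001-36000000 (0.79, with the adrenergic receptor Adra2c), chr9:60000001-61000000 (0.78, with Thsd4 and Uaca) and chr11:67000001-68000000 (0.76, with the myosin heavy chain genes Myh1, Myh2 and Myh3). The remaining ones were chr5:74000001-75000000 (0.75, with the deubiquitinase Usp46) and chr2:128000001-129000000 (0.73, with Mertk, a receptor kinase in the uptake of dying cells, and Anapc1, a subunit of the anaphase-promoting complex). In chr9:60000001-61000000 the 6 libraries agreed closely, at 0.82, 0.71, 0.78, 0.75, 0.83 and 0.78. None of the 10 highest bins contained a 10 kb bin of very high background, and without such bins their levels ran from 0.70 to 0.88. The captured core of chromosome 2, compared further on, had levels of both signs in these bins, chr2:128000001-129000000 left out. Its highest was 0.67 at chr5:74000001-75000000, where the cores were not called different (adjusted p 0.140, edgeR). Its lowest was -0.53 at chr5:35000001-36000000.

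The lowest levels came in 2 kinds. In 5 of the 10 lowest bins the background was concentrated in 1 or 2 bins of 10 kb, and the level rose once these were removed. The lowest of all, chr17:39000001-40000000, held 550 core contacts where 10725.8 were expected, a level of -4.20, but 96.2% of its background lay in the 10 kb bin with Rn18s-rs5, and without it the level was -0.32. Its coding genes are Esp genes, which encode exocrine gland peptides used in chemical signalling. Likewise chr11:3000001-4000000 (Sfi1 and others) moved from -1.78 to -0.48, chr1:195000001-195380000 (the complement genes Cd46, Cr1l and Cr2) from -1.66 to -0.15, chr3:8000001-9000000 (Stmn2 and Hey1) from -1.59 to -0.65, and chr12:15000001-16000000 (Trib2) from -1.56 to -0.47. Of these 5, chr1:195000001-195380000 was no longer called (adjusted p 0.254, edgeR).

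The other 5 were low without any such bin, and their coding genes are mostly predicted genes (Gm symbols) or members of clustered families. These were chr14:42000001-43000000 (-2.03), chr2:175000001-176000000 (-1.87, Zfp966 and related zinc-finger genes), chr12:23000001-24000000 (-1.86), chr14:6000001-7000000 (-1.68) and chr8:20000001-21000000 (-1.52, with the beta-defensin Defb33). Their counts were small: chr14:42000001-43000000 held 3, 6, 5, 1, 2 and 2 contacts against 68.6 expected in all. Reads from near-identical gene copies may be lost or misplaced, and the part of mappability in these levels was not tested. The chromosome 2 core was low in the 4 of these bins it could be compared in, at -2.24, -1.85, -2.02 and -1.93 in the order given, chr2:175000001-176000000 left out.

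Gene-rich bins had higher levels. Bins were ranked by their number of protein-coding genes (RefSeq) and cut into 5 groups of equal size, with ties split. The median level was -0.49 in the group with 0 to 1 genes, -0.23 with 1 to 4, -0.04 with 4 to 8, 0.11 with 8 to 14 and 0.19 with 14 to 67. The share of bins called higher rose in the same order from 6% to 60.4%, and the share called lower fell from 82% to 20.9%. Spearman's rho between level and gene number was 0.50 over 2246 bins, and 0.43 to 0.50 in single libraries. It was above 0 on 17 of 18 chromosomes, the exception being chromosome 7 at -0.08. The share of the bin covered by gene bodies gave 0.45. These are descriptions across bins that share background and mappability. The background itself was higher in bins of high level (rho 0.61), although it is the divisor of the level, and without the 10 kb bins of very high background rho with gene number was 0.52.

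These groups were compared between genotypes on the medians of single libraries. In the group with 1 to 4 genes these were -0.18 ± 0.02 (SD, n = 3) in wild type and -0.25 ± 0.02 in homozygotes, and they did not overlap (exact permutation p = 0.1, the smallest possible). The group with 4 to 8 genes did not overlap either, at -0.04 ± 0.01 and -0.05 ± 0.01 (exact permutation p = 0.1). In the gene-poorest group the medians were -0.45 ± 0.07 and -0.51 ± 0.05 and overlapped (exact permutation p = 0.4). The 2 richest groups overlapped as well (exact permutation p = 0.9 and 0.5). No p of this design can pass 0.05. At single bins the genotypes did not overlap in 11.4%. In groups by the share covered by gene bodies, those with 13.6% to 34.0% and 34.1% to 51.0% covered also had exact permutation p = 0.1.

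**Figure D2:**
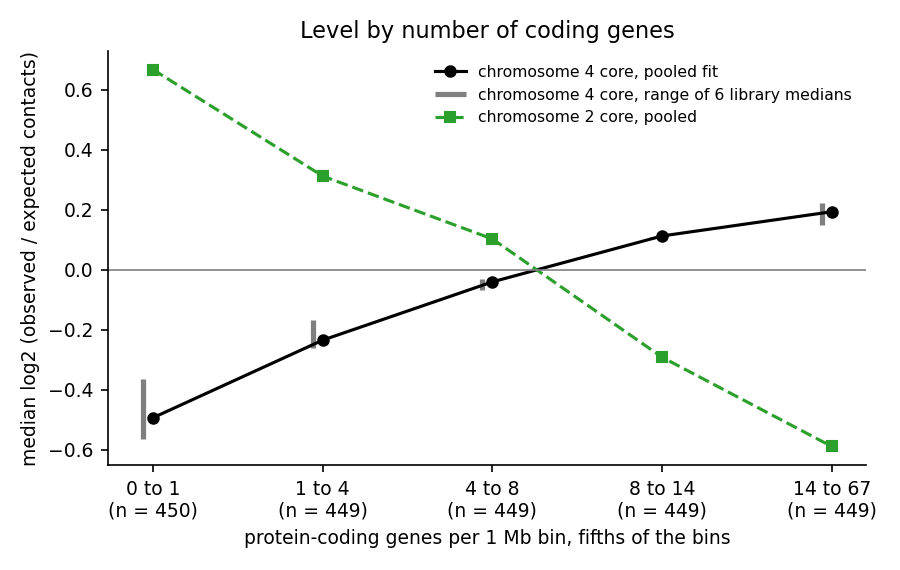
Median level of 1 Mb bins in 5 groups of rising number of protein-coding genes, for the chromosome 4 core (black, with grey bars for the range of 6 library medians) and the chromosome 2 core (green, pooled). The chromosome 4 core climbs from -0.49 to 0.19, and the chromosome 2 core drops from 0.67 to -0.59.

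Bins near the centromere had lower levels, also at like gene number. The 479 bins in the first 30 Mb of their chromosome had a median level of -0.40, and the 1767 bins beyond had 0.01, where the median bins held 5 and 6 coding genes. Near the centromere the medians of single libraries ran from -0.42 to -0.33, and beyond 30 Mb from -0.01 to 0.03. The boundary of 30 Mb was chosen after the values were seen. At like gene number the gap remained: -0.56 against -0.28 in bins with 0 to 4 genes, -0.29 against 0.12 with 5 to 14, and -0.18 against 0.25 with 15 or more. In the first 10 Mb the medians of the 3 classes were -0.44, -0.38 and -0.45, so gene-rich bins there were no higher than gene-poor ones. The first 30 Mb had the lower median on 16 of 18 chromosomes, steepest on 11 (-0.46 against 0.29) and 15 (-0.75 against -0.004). It had the higher median on chromosomes 16 (-0.06 against -0.42) and 17 (0.01 against -0.22).

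**Figure D3:**
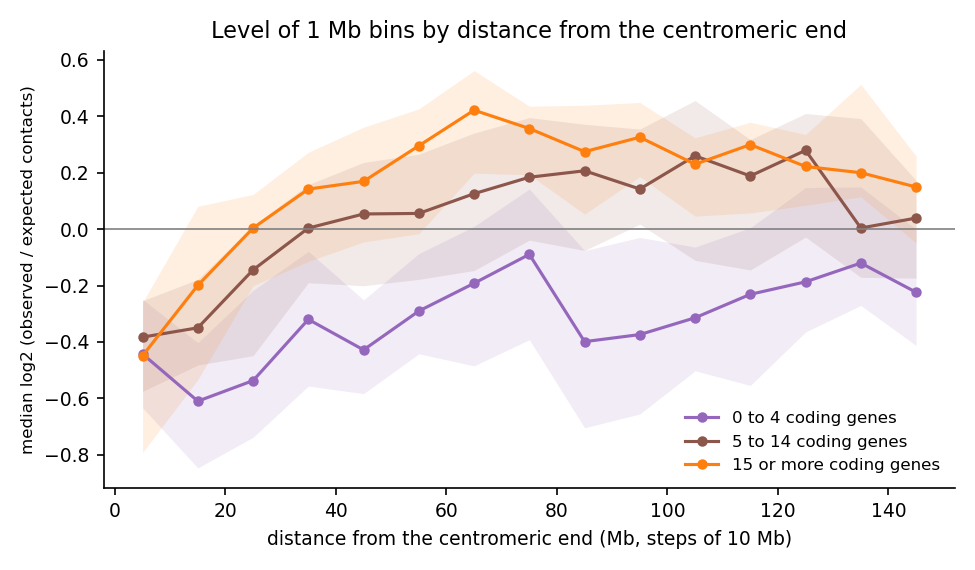
Median level of 1 Mb bins in steps of 10 Mb from the centromeric end, for bins with 0 to 4, 5 to 14, and 15 or more coding genes; shading spans the quartiles of the bins. The 3 classes start between -0.45 and -0.38 and separate with distance, and the steps from 10 to 20 Mb and beyond 130 Mb hold fewer than 20 bins of the richest class.

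At single bins the deletion made no difference that passed adjustment. In edgeR's quasi-likelihood test 0 of 2246 bins (0%) were called, with 153 (6.81%) at an unadjusted p under 0.05, and DESeq2 called 0 with 55 at an unadjusted p under 0.05. The genotypes did not overlap in 255 bins (11.4%). From the 5th to the 95th percentile the difference, homozygous minus wild type, ran from -0.29 to 0.21. The levels of the 2 genotypes correlated at r = 0.937 over 2246 bins, as a description, since both use the same probes and genome.

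The smallest p was at chr1:94000001-95000000, which holds Gal3st2c, the sialidase Neu4 and Pdcd1, the gene of the immune receptor PD-1. Its levels were 0.29, 0.22 and 0.31 in wild type against -0.12, -0.51 and -0.29 in homozygotes, on 78, 96, 109, 64, 81 and 73 contacts. The groups did not overlap, but the difference of -0.60 had an adjusted p of 0.183 (edgeR, unadjusted 8.16e-05). The bin chr2:131000001-132000000 (Atrn, Gfra4, Adam33) had levels of 0.22, 0.37 and 0.14 in wild type against 0.79, 0.52 and 0.51 in homozygotes, a difference of 0.35 with an adjusted p of 0.504 (edgeR). The bin chr5:25000001-26000000 (Prkag2, the histone methyltransferase gene Kmt2c, Xrcc2) had 0.19, 0.13 and 0.00 against 0.42, 0.58 and 0.36, a difference of 0.36 with an adjusted p of 0.504 (edgeR). In all 3 bins the groups were apart, as they were in 11.4% of bins at large.

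**Figure D4:**
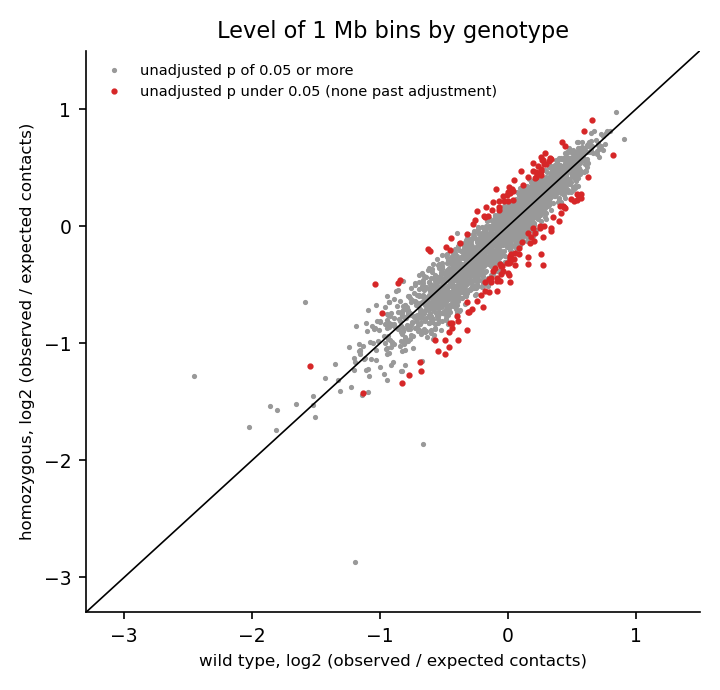
Level of each 1 Mb bin in wild type and homozygotes, with 153 bins of unadjusted p under 0.05 in red and the line of equality; 1 bin (chr17:39000001-40000000) lies outside the axes. The points follow the line, and 0 bins passed adjustment.

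Genes of testis cell types lay in bins called higher more often than lower. These values describe the whole 1 Mb bin, not the gene, and such bins are gene-rich, which moves with the level as given above. Of bins with 14 to 67 coding genes, 60.4% were called higher and 20.9% lower, with a median level of 0.19. The 13 bins of spermatid genes had 7 called higher and 2 lower, with a median level of 0.12 and a median of 22 coding genes, against -0.08 and 6 over all bins, of which 33.4% were higher and 45.6% lower. The bin of Ldha and Ldhc (lactate dehydrogenases, Ldhc being the germ-cell form) had levels of 0.23, 0.65 and 0.69 in wild type against 0.69, 0.53 and 0.70 in homozygotes, 0.59 in the fit (adjusted p 3.10e-26, edgeR). The bin of Ybx2 (an mRNA-storing protein of germ cells) stood at 0.45 and that of Tnp1 (a transition protein that replaces histones) at 0.38, both higher. The bin of the protamine genes Prm1, Prm2 and Prm3 with Tnp2 was at 0.08 and was not called (adjusted p 0.140, edgeR). That of Pgk2, a sperm glycolytic enzyme, was lower, at -0.36.

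The 15 bins of meiosis genes had 7 higher (46.7%) and 3 lower (20%), with a median of 0.09 and a median of 15 coding genes. Over all bins 33.4% were higher and 45.6% lower, with a median of 6 coding genes. Sycp1, a protein of the synaptonemal complex, lay in the highest of them, at 0.52, with library levels of 0.22, 0.63, 0.52, 0.32, 0.60 and 0.68. The bin of Dmc1, the meiotic recombinase, was among the lower ones at -0.30, but holds a 10 kb bin of very high background, and without it the level was 0.17. The 13 bins of Sertoli and Leydig genes had 6 higher (46.2%) and 2 lower (15.4%), with a median of 0.11 and a median of 17 coding genes. Cyp11a1, which starts steroid synthesis, spans bins at 0.47 and 0.62, and Gata4, a transcription factor of the gonad, lies in one at 0.47. Lhcgr and Fshr, the gonadotropin receptors, share a bin at -0.54, and Fshr reaches into the next one at -1.13, where there is 1 coding gene.

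Receptor gene clusters, other gene families and paralogs had medians on both sides of the median of all bins (-0.08). Of all bins 33.4% were called higher and 45.6% lower. The 77 bins with olfactory receptor genes had 25 higher (32.5%) and 33 lower (42.9%), with a median of -0.10. The 46 with vomeronasal receptor genes had 9 higher (19.6%) and 28 lower (60.9%), with a median of -0.24. The bins of these families held medians of 23 and 14 coding genes. Both families hold near-identical copies, whose reads may be lost, and the part of this in their levels was not tested. The 178 bins with Zfp genes had 89 higher and 52 lower (median 0.12), the 8 bins of replication-dependent histone genes 3 and 2 (median -0.04), and the 6 Krtap bins 4 and 2 (median 0.24). A list of paralogs of the core's genes gave 14 bins, with 4 higher and 6 lower (median -0.05). It also held Slc1a1, Slc1a2 and Slc1a3, though no Slc1a gene is among the core's 16 coding genes. Their bins, at -0.04 (not called), 0.50 (higher) and -0.39 (lower), are part of these counts and of the median. The bin of Dmrt1, Dmrt2 and Dmrt3, relatives of Dmrtb1, was at -0.15 and that of Glis2 at -0.29. Those of Magohb and Cpt1a were at -0.56 and -0.86, and all of these were called lower. The bins of Dio3 (0.26), Lrp2 (0.23) and Cpt1b (0.19) were called higher.

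A table deposited by the authors, in which testis expression was regressed on genotype, lists 566 genes called trans. The sources used here do not say whether distant genes of chromosome 4 are among them. Of the 566 genes, 536 were matched by symbol and 486 lay on tested bins, in 377 bins. In those bins 210 levels were higher (55.7%) and 86 lower (22.8%), with a median of 0.16 and a median of 14 coding genes. Over all bins 33.4% were higher and 45.6% lower, with a median of -0.08 and a median of 6 coding genes. The part of gene number in this difference was not tested. Between genotypes 23 of them (6.10%) reached an unadjusted p under 0.05, against 6.81% of all bins. By the sign of the slope in the authors' deposited table, 538 of the 566 listed genes have a positive slope and 28 a negative one. Those that could be placed on tested bins lay in 358 and 21 bins, with median levels of 0.16 and 0.06.

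The levels of the 2 sides of the deleted interval were closely correlated. The left side (600 kb) made 162672 to 264290 trans contacts per library and the right side (220 kb) 58611 to 99820, and their levels correlated at r = 0.940 over 2246 bins, as a description, since both are divided by the same background. With the library as block, edgeR called 1 of 2246 bins (0.0445%), with 179 (7.97%) at an unadjusted p under 0.05. The called bin was higher on the left: chr2:86000001-87000000, a cluster of olfactory receptor genes (Olfr1032 and others). Its left side had levels of -0.15, -0.26, -0.06, 0.17, -0.37 and 0.17, and its right side -1.41, -0.85, -0.84, -0.43, -0.52 and -1.72, on 6 to 18 contacts. The sides did not overlap, and the difference was 0.82 (adjusted p 0.0374, edgeR). The call was lost without wild-type library 1, 2 or 3 or homozygous library 1 or 3 (adjusted p 0.0677 to 0.412, edgeR), and DESeq2 called 0 bins (30 at an unadjusted p under 0.05).

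The flanks of the captured chromosome 4 region, on both sides of the core, had few trans contacts, 3826 to 5619 per library. The core had 221004 to 364110, and how far the probes enriched the flanks was not tested. Only 190 bins, those with enough expected flank contacts and so a high background, could be tested against the core. The levels of core and flanks correlated at r = 0.66 over these bins, as a description. edgeR called 2 of 190 (1.05%), both lower in the core. One was chr17:39000001-40000000 (-4.29 against -1.96, difference -2.27, adjusted p 4.58e-08, edgeR), the bin of Rn18s-rs5. The other was chr2:114000001-115000000 (-1.29 against 0.23, difference -1.51, adjusted p 0.0193, edgeR), which adjoins the captured stretch of chromosome 2 and rests on 0 to 9 flank contacts per library. The latter call was lost in DESeq2 (adjusted p 0.132) and without wild-type library 1 or 3 or homozygous library 1 or 3 (adjusted p 0.0865 to 0.671, edgeR).

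The captured core of chromosome 2, which carries no deletion, had the opposite preference for gene-rich bins. On the 2070 bins of autosomes other than 2 and 4, its level correlated with gene number at rho = -0.62, against 0.50 for the chromosome 4 core on the same bins, and its medians over the 5 groups of gene number fell from 0.67 to -0.59. The 2 cores' levels correlated at rho = -0.30 (r = -0.15), although both are divided by the same background. With the library as block, edgeR called 1850 of 2070 bins different (89.4%), 877 higher for the chromosome 4 core (42.4%) and 973 lower (47%). In the first 30 Mb the median level over all bins was -0.40 for both cores, but the classes of gene number differed. Bins there with 0 to 4 genes had medians of -0.56 with the chromosome 4 core and -0.02 with the chromosome 2 core, and bins with 15 or more genes had -0.18 and -1.13.

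The bins with the smallest adjusted p in favour of the chromosome 4 core held many genes. The bin chr8:122000001-123000000 (22 coding genes, among them Zfpm1, a partner of GATA factors) had levels of 0.64, 0.62, 0.57, 0.47, 0.56 and 0.34 with the chromosome 4 core and -1.22, -1.20, -0.84, -1.36, -1.10 and -1.32 with the chromosome 2 core. The difference was 1.70 (adjusted p 6.85e-45, edgeR), with no overlap. Differences of 1.67, 1.60, 1.55 and 1.51 were found at chr8:123000001-124000000, chr7:141000001-142000000, chr17:24000001-25000000 and chr17:25000001-26000000, with 28 to 50 coding genes each. The 5 most significant bins in the other direction held 0 to 5 coding genes. In chr11:92000001-93000000, with 0, the chromosome 4 core had levels of 0.03, -0.31, -0.39, -0.72, -0.28 and -0.57 and the chromosome 2 core 1.39, 1.31, 1.44, 1.05, 1.46 and 1.44, a difference of -1.73 (adjusted p 4.94e-42, edgeR). The others were chr5:80000001-81000000 (-1.74), chr7:94000001-95000000 (-1.73), chr9:81000001-82000000 (-1.74, with Htr1b and the meiotic gene Mei4) and chr9:76000001-77000000 (-1.64, with Hcrtr2 and others).

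**Figure D5:**
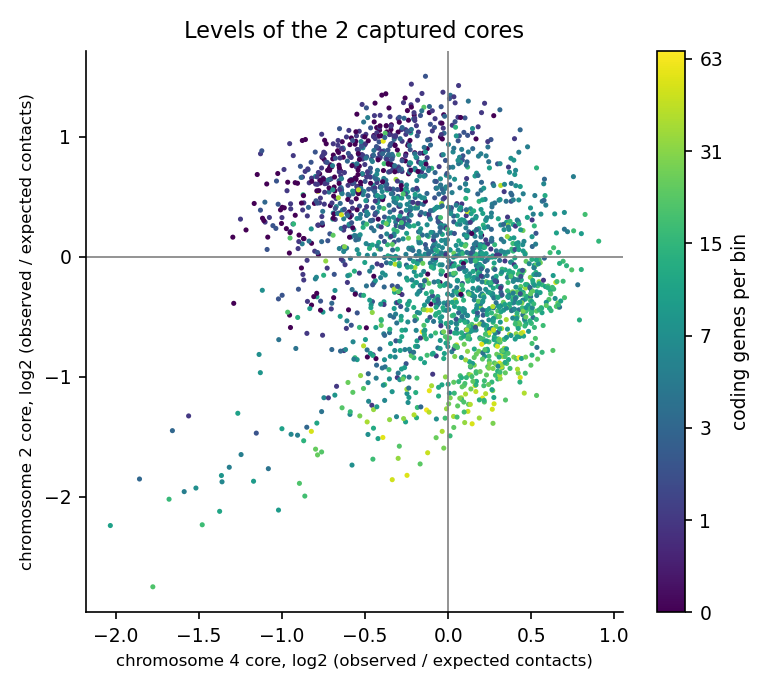
Level of each of 2070 bins with the chromosome 4 core and the chromosome 2 core, coloured by the number of coding genes on a log scale; 1 bin lies outside the axes. Gene-poor bins (dark) gather at upper left and gene-rich bins (light) at lower right, while a tail at lower left is low with both cores.

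Contacts between the chromosome 4 core and the captured stretch of chromosome 2 have a captured region at both ends and were taken apart. They numbered 388, 519 and 482 in wild type against 352, 515 and 517 in homozygotes. As a share of the core's trans contacts these were 0.175%, 0.163% and 0.171%, a mean of 0.170% ± 0.00619 (SD, n = 3), against 0.159%, 0.141% and 0.182%, a mean of 0.161% ± 0.0202 (SD, n = 3). The 95% Wilson intervals of the single shares, which cover counting error alone, lay between 0.130% and 0.198%. The groups overlapped, and the difference of -0.00888 percentage points was smaller than the homozygous SD (two-sided exact permutation p = 0.6). Without homozygous library 2 it was 0.000813, and without homozygous library 3 it was -0.0194 (exact permutation p = 0.1, the smallest that 3 against 2 libraries allow). Per Mb, the stretch made 1.16, 1.16 and 1.14 times the core contacts of chromosome 2 within 10 Mb on either side in wild type against 1.10, 0.984 and 1.16 times in homozygotes, a reference chosen after the values were seen.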

How the data were processed

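Interchromosomal contacts were taken from 6 capture Hi-C libraries of mouse testis. The authors deposited raw, unnormalized counts of contacts per pair of 10 kb bins; the protocols in the labels name an Arima kit, with capture by Agilent SureSelect, and the build is mm10 per the submitters' processing notes. Aligner and filters are not given in the sources used here. Each file's name carries the genotype and replicate that tie it to its library. A table deposited by the authors gives for each gene a t statistic as a score, a p-value and a regression slope, which was used for its sign; STAR is listed in the submitters' processing notes. The members, gene lists and tests were chosen with earlier results of these data known.

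Contacts were summed over 82 bins of the core (chr4:107110001-107960000 without chr4:107710001-107740000) and merged to 1 Mb. Captured regions were chr4:102820001-110380000, whose part outside the core made up the flanks, and chr2:114820001-117500000, with a core at chr2:115200001-117080000. Expected counts were the core's trans total times the bin's share of background trans contacts (autosomes, X and Y; neither end in a captured region) in that library. Single-library levels used a pseudocount of 0.5. Bins needed a background of at least 200 contacts over 6 libraries and a mean expected count of at least 3. edgeR 4.0.16 (R 4.3.3; robust quasi-likelihood fit) used log expected counts as offsets, testing the mean over genotypes and the difference between them; comparisons of 2 regions had the library as block. Thresholds were a Benjamini-Hochberg adjusted p of 0.05. Single values were compared by exact permutation over all arrangements of the libraries (Python 3.11.15, numpy 2.4.6). DESeq2 1.42.0, other bin sizes (500 kb, 2 Mb), filters, scalings, either side alone, each 10 kb pair counted once and leaving out each library were alternatives. The edgeR fits were tested on counts simulated from the expected counts, with 200 bins changed. For genotype, 12 of 50 bins changed 1.25-fold were recovered, 46 of 50 changed 1.5-fold and 50 of 50 changed 2-fold. At 0.5-fold 49 of 50 were recovered, and 12 unchanged bins were called. Named bins were the 10 highest and 10 lowest called levels, up to 5 called bins per direction in other comparisons by smallest adjusted p, or, with 0 called, the 3 of smallest p, with up to 6 genes each. The deposited table of genes near the deletion and the ChIP-seq samples were not used here.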

Additional observations from a re-analysis of the deposited data

Results flagged for a closer look

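Contacts of the chromosome 4 core with the sex chromosomes lie outside the autosomes described above and are given as values. With chromosome X the core made 4101, 5133 and 4721 contacts in wild type against 4082, 5635 and 4651 in homozygotes. The level, log2 of observed over expected with the scaling of the autosomes, had a mean of -0.15 over the 6 libraries. The wild-type mean was -0.11 ± 0.08 and the homozygous mean -0.19 ± 0.10 (SD, n = 3 each), and the groups overlapped (two-sided exact permutation p = 0.5). The chromosome 2 core had -0.12. With chromosome Y there were 84, 104 and 121 contacts in wild type against 91, 130 and 109 in homozygotes, a mean level of -1.70, with overlap between genotypes (exact permutation p = 0.9). The chromosome 2 core had -1.67 there, so the low level with Y was shared by both captured regions.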

How the results depend on the processing

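The count of bins departing from expectation (1775) was 1618 with DESeq2, 1390 with the right side alone and 1675 to 1738 without single libraries; 76.7% to 100% of the calls were kept in direction over the alternatives at 1 Mb. The genotype test called 0 bins under every alternative run. The genotype difference in trans share turned to -0.296 per 100 background contacts and ran from 0.0167 to 0.860 without single libraries. Chromosomes whose genotypes did not overlap numbered 0, but 1 without the 10 kb bins of very high background (chosen after seeing the data) and 1 to 4 without single libraries (4 without wild-type library 1), where 2 libraries stand against 3. For the captured stretch of chromosome 2 the difference ran from -0.0194 to 0.000813 without single libraries. Left against right gave 0 bins with DESeq2 and 0 to 1 without single libraries; core against flanks gave 1 with DESeq2 and 1 to 2 without single libraries, and with a mean expected count of at least 10 it could not be fitted. Against the chromosome 2 core, TMM factors gave 934 higher and 930 lower. Deviations of bin levels showed little pairing by replicate number (r -0.031, 0.096 and -0.005), and 1 of 3 wild-type libraries correlated best with its own number. Core contacts per 100 background contacts did go together by number, at 55.6 and 56.0, 73.8 and 70.0, and 57.9 and 60.4. A batch shared by equal numbers was therefore not excluded. With the replicate block 1775 bins were called for the level and 0 for genotype (161 unadjusted), and 4 chromosomes had 3 same-numbered differences of one sign. Depth limits the right side and the flanks most.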
